A study of Mus musculus with 16 samples.

Results

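A pair of cell clones that carry the same stable β-catenin mutant was compared CpG by CpG, to ask where their DNA methylation differed. Both were made from E14 cells, embryonic stem cells (mESCs) of a 129/Ola mouse, and overexpress S33Y β-catenin. In this mutant a serine that marks β-catenin for degradation is replaced by tyrosine, so that the destruction complex of the Wnt pathway no longer removes the protein. The members were chosen by label alone and are the 2 libraries of OP-S33Y #2 and the 2 libraries of OP-S33Y #1, 4 of the 16 samples of the series. The other samples used here were young-passage E14 cells (YP-mESCs), from which the clones were derived, and old-passage E14 cells (OP-mESCs), which have no mutant. Each of these groups has 2 libraries. All lines were grown on gelatine in medium with serum and LIF, and the clones were kept for many passages, as OP-mESCs were, before they were sampled. Each clone is 1 line, so a difference between them describes these lines and not an effect of the mutant, which both carry. The paper calls the libraries of a line biological replicates, but neither it nor the labels say that those of a clone came from separate cultures. The p-values then measure only the spread between these libraries, which may be technical.

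Methylation of a cytosine before a guanine (CpG) is copied at each cell division and can be lost or gained as cells divide in culture. Imprinting control regions (ICRs) are the best known case in which it is set by the parent of origin. In a normal mouse cell the ICR of an imprinted gene cluster is methylated on the maternal or on the paternal chromosome and bare on the other, so that a bulk sample reads an intermediate level. An intermediate level in such a sample can also come from a mixture of fully methylated and unmethylated cells, which RRBS counts per CpG cannot tell apart from methylation of 1 allele. RRBS (reduced representation bisulfite sequencing) reads CpG-rich restriction fragments after bisulfite has converted unmethylated cytosines, and the methylation level is the percent of reads in which the cytosine remains.

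The stretches below are shown because they hold CpGs of the 3 ICRs that differed between the clones. They are given 5′ to 3′ on the + strand of mm9, and CG in capitals marks a CpG that was compared, having 10 or more reads in each of the 4 libraries. The Gnas stretch lies in a coding exon within the Gnas ICR (chr2:174125438-174125563), the Kcnq1ot1 stretch in an intron of Kcnq1 within the Kcnq1ot1 ICR (chr7:150481270-150481326), and the Gpr1 stretch in an intron of Gpr1 within its ICR (chr1:63247001-63247142).
Gnas: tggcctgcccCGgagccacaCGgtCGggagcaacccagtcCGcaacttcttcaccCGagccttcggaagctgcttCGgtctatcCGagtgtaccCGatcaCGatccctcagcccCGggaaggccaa
Kcnq1ot1: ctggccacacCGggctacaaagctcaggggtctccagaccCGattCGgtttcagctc
Gpr1: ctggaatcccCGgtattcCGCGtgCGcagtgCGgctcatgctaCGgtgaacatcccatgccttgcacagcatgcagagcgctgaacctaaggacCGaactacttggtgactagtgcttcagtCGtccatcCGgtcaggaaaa
Over the 10 capital CpGs of the Gnas stretch, the mean level was 48.8% and 39.8% in the replicates of OP-S33Y #1 and 89.9% and 91.0% in those of OP-S33Y #2. The single CpGs ran from 26.0% to 59.1% in OP-S33Y #1 and from 55.0% to 100% in OP-S33Y #2. Over the 9 capital CpGs of the Gpr1 stretch, it was 30.1% and 44.1% against 0.20% and 0.29%. The clones thus differed in opposite directions at Gnas and Gpr1, and no library of one clone overlapped with the other at either.

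The 4 libraries had 22197115 to 32301678 reads on CpGs, and 606966 CpGs had at least 10 reads in all of them, with a median of 27 to 44 reads per library. On the mitochondrial genome, where CpG methylation is near absent, 0.25% to 0.45% of the reads read as methylated. Replicates of one clone were close but not copies of each other, since their reads varied 1.14 times (OP-S33Y #1) and 1.1 times (OP-S33Y #2) as much as sampling alone gives. Of 12 stem cell marker genes listed, 7 had a promoter that could be tested, among them Pou5f1, Sox2 and Klf4. All 7 were under 10% methylated in all 4 libraries. So were 11430 of the 13334 promoters tested, and the markers are not set apart by this. RRBS measures no expression, so this is a check of the promoters only.

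The clones had nearly the same methylation overall. The mean over the compared CpGs was 27.0% in both replicates of OP-S33Y #1 and 25.9% and 25.7% in those of OP-S33Y #2. Both libraries of OP-S33Y #2 thus lay below both of OP-S33Y #1, with a difference of -1.21 points (27.03% ± 0.02 against 25.82% ± 0.18, SD, n = 2 each). An exact permutation test, two-sided, gave p = 0.333, the smallest that 2 against 2 libraries allow. Weighted by reads, the difference was -0.45 points. Between replicates of one clone, 1.06% (OP-S33Y #1) and 1.05% (OP-S33Y #2) of CpGs were more than 25 points apart. Between a library of one clone and a library of the other, this was 1.62% to 2.20%. Pearson's r, across CpGs that are not independent replicates, was 0.985 and 0.983 within the clones and 0.977 to 0.981 between them.

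Single CpGs that differed were mostly lower in OP-S33Y #2. Of 606966 CpGs, 1718 were lower (0.283% of those tested) and 157 were higher (0.0259%) in a binomial model with an overdispersion shared by all CpGs, if the clones were over 25 points apart and the Benjamini-Hochberg adjusted p was under 0.05. The lower CpGs had a median of 85.5% in OP-S33Y #1 and 39.2% in OP-S33Y #2, and the higher CpGs a median of 31.8% and 75.5%. Of the 156 lower CpGs with 10 reads on both strands in all 4 libraries, 150 differed in the same direction on both. They were called on the sum of the strands, so most had to share a direction. On both strands over 25 points lower were 64. The count of lower CpGs was 634 without OP-S33Y #1 replicate 2, 1040 without OP-S33Y #2 replicate 1 and 1022 without OP-S33Y #2 replicate 2, and that of higher CpGs was 82 without OP-S33Y #2 replicate 1. At a minimum of 20 reads 582 were lower and 74 higher.

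The lower CpGs lay away from gene starts. Within promoters, 1000 bases before to 500 after a gene start, 0.0312% of CpGs were lower in OP-S33Y #2, against 0.397% in exons, 0.462% in introns and 0.560% between genes. Promoters were also where both clones were least methylated, at 2.48% and 2.46% on average, so that few of their CpGs could fall by 25 points. Among CpGs with at most 5 CpGs within 100 bases, counting the CpG itself, 0.761% were lower, and among those with over 20 only 0.0186% were. By the level in YP-mESCs, 1.04% of CpGs at 30% to 70% were lower, 0.743% at 70% to 90% and 0.523% at 90% or more. Higher CpGs came mainly from intermediate levels, with 0.183% of those at 30% to 70%, 0.00836% at 70% to 90% and none of 41278 at 90% or more, where a rise of 25 points is not possible. On each of the 19 autosomes more CpGs were lower than higher in OP-S33Y #2, from 0.180% lower on chromosome 19 to 0.382% on chromosome 10. On chromosome X, 6 were lower and 5 higher.

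Of the ICRs tested, Gnas and Kcnq1ot1 were higher in OP-S33Y #2, and Gpr1 was nearly bare there. The Gnas cluster encodes the stimulatory G protein alpha subunit and several imprinted transcripts. At its ICR (chr2:174119863-174126564, 15 CpGs compared, 217 to 720 reads per library summed over CpGs), the libraries of OP-S33Y #1 had 49.9% and 42.6%, and those of OP-S33Y #2 had 91.2% and 94.0%. YP-mESCs had 44.0% and 42.2% there, and OP-mESCs 46.8% and 38.6%, the last on only 5 of the 15 CpGs. OP-S33Y #2 therefore stood above the other 6 libraries, and its difference from OP-S33Y #1 was 46.3 points (adjusted p = 3.32e-11, quasi-binomial F test with limma's moderated overdispersion, adjusted over all 1 kb windows and ICRs). With every CpG that a library covered on its own, the level was 49.8% and 43.8% over 78 and 51 CpGs in OP-S33Y #1 against 92.8% and 93.8% over 60 and 21 CpGs in OP-S33Y #2. Only 1 CpG of this ICR had 20 reads in all 4 libraries, with 45.3% and 26.0% against 64.1% and 55.0%, a difference of 23.9 points, and the ICR could not be tested at that minimum.

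The Kcnq1ot1 ICR (chr7:150480736-150482810) holds the promoter of a non-coding RNA that silences neighbours such as Cdkn1c, a cell cycle inhibitor, on the paternal chromosome. Its 3 compared CpGs had 54.5% and 38.5% in OP-S33Y #1 against 97.9% and 91.3% in OP-S33Y #2, a difference of 48.1 points (adjusted p = 8.21e-07, same test). YP-mESCs had 46.6% and 53.5%, and OP-mESCs 0% and 1.42%. This ICR was thus nearly bare in OP-mESCs, intermediate in OP-S33Y #1 and nearly full in OP-S33Y #2. On the CpGs of each library alone, 17 and 6 CpGs gave 46.3% and 40.4% in OP-S33Y #1, and 14 CpGs in each replicate gave 95% and 96.0% in OP-S33Y #2.

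The Gpr1 ICR (chr1:63246658-63247300) is the maternally methylated region of the Gpr1 and Zdbf2 domain. Its 9 compared CpGs had 30.1% and 44.1% in OP-S33Y #1 against 0.20% and 0.29% in OP-S33Y #2, a difference of -36.9 points (adjusted p = 1.66e-10, same test). In each OP-S33Y #2 library 1 read of 373 and 1 of 327 was methylated, which allows at most 1.48% and 1.69% (exact Clopper-Pearson 95% intervals, counting error only, and narrow because a read spanning several CpGs enters at each). YP-mESCs had 44.4% and 27.7%, and OP-mESC replicate 1 had 0%. OP-S33Y #2 was thus at the level of the only OP-mESC library with a value, and OP-S33Y #1 within the range of YP-mESCs.

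The Peg10 ICR (chr6:4696743-4699483) serves a retrotransposon-derived gene needed in the placenta. It had no CpG with 10 reads in OP-S33Y #1 replicate 2 and was not tested. Its 12 CpGs had 43.2% in OP-S33Y #1 replicate 1 and 0.25% and 0.56% in OP-S33Y #2. As a share of summed reads these were 43.7% (interval 37.8% to 49.6%), 0.24% (up to 1.31%) and 0.53% (up to 1.89%). YP-mESCs had 36.3% and 29.2%, and OP-mESC replicate 1 had 0.29%. The order of the lines was that of Gpr1, but it rests on 1 library of OP-S33Y #1 and has no test.

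**Figure D1:**
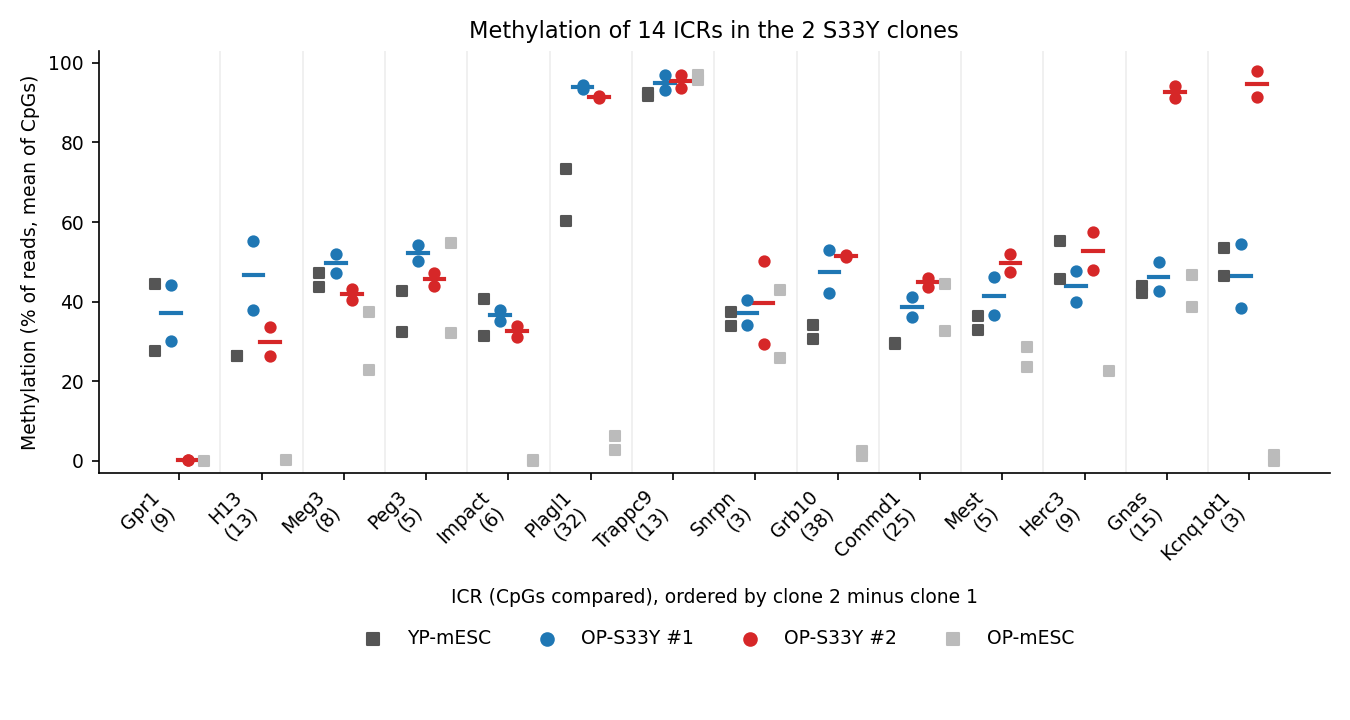
Methylation (y axis, % of reads, mean of the compared CpGs) of the 14 tested ICRs, ordered on the x axis by OP-S33Y #2 minus OP-S33Y #1. Each point is a library, the bars are the means of the clones, and the number of CpGs is in brackets. Gnas and Kcnq1ot1 lie above 90% and Gpr1 near 0% in OP-S33Y #2, and Plagl1 and Trappc9 lie above 90% in both clones.

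Of the 20 ICRs listed, 14 had at least 2 CpGs with 10 reads in all 4 libraries. Of these, 2 were higher and 1 was lower in OP-S33Y #2 at an adjusted p under 0.05. Among all 1 kb windows, 0.768% were higher and 4.32% lower by the same rule. With 14 ICRs, 1 lower is near that share and 2 higher are above it. The other 11 ICRs did not pass. H13 (Mcts2), where OP-S33Y #1 had 37.9% and 55.3% and OP-S33Y #2 had 33.5% and 26.4%, came near the threshold (adjusted p = 0.0513, same test). Its difference was -16.6 points, and -7.95 points without OP-S33Y #1 replicate 2. Plagl1, a zinc finger gene of the fetal growth network, had 93.4% and 94.3% against 91.1% and 91.6%. That is a difference of -2.51 points (adjusted p = 0.0503, same test), and both clones were far above the 73.2% and 60.3% of YP-mESCs and the 2.79% and 6.15% of OP-mESCs.

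At the other ICRs tested the clones were closer. Trappc9 was nearly full in both clones, at 93.2% and 96.8% in OP-S33Y #1 against 97.0% and 93.6% in OP-S33Y #2. The paternally methylated Meg3 ICR had 47.1% and 52.1% against 40.4% and 43.2%, and Peg3 had 54.2% and 50.3% against 44.0% and 47.3%. Grb10, a growth inhibitor of insulin signaling, had 52.9% and 42.2% against 51.8% and 51.2%, where OP-mESCs had 2.62% and 1.36%. Mest had 36.6% and 46.2% against 47.6% and 52.0%, Herc3 (Nap1l5) 47.6% and 40% against 57.4% and 47.8%, and Commd1 (Zrsr1) 41.2% and 36.1% against 46.0% and 43.7%. Snrpn had 34.1% and 40.4% against 29.3% and 50.1%, and Impact 37.9% and 35.2% against 33.9% and 31.2%. These 9 ICRs thus kept intermediate or full levels in both clones, with differences of -7.78 to 8.79 points that did not pass the test. This does not show that the clones were equal there.

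Of the 6 ICRs not tested, Igf2r (own CpGs of each library) had 44.9% and 64.3% in OP-S33Y #1 against 42.7% and 46.2% in OP-S33Y #2. Inpp5f had 42.8% in OP-S33Y #1 replicate 1 against 50.8% and 32.5%, and Nnat had 86.2% in OP-S33Y #1 replicate 1 against 84.2% and 83.3%. H19 and Rasgrf1 had too few CpGs in OP-S33Y #2 for a value. When any 1 of the 4 libraries was left out, or with limma on mean percentages, the model over all windows called 0 ICRs, while 2 to 4 higher and 1 to 4 lower still had an unadjusted p under 0.05. With only windows and ICRs of 10% to 90% mean level, an alternative chosen after the data were seen, Gnas, Kcnq1ot1 and Gpr1 passed without any 1 of the 4 libraries (adjusted p of at most 0.000416).

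**Figure D2:**
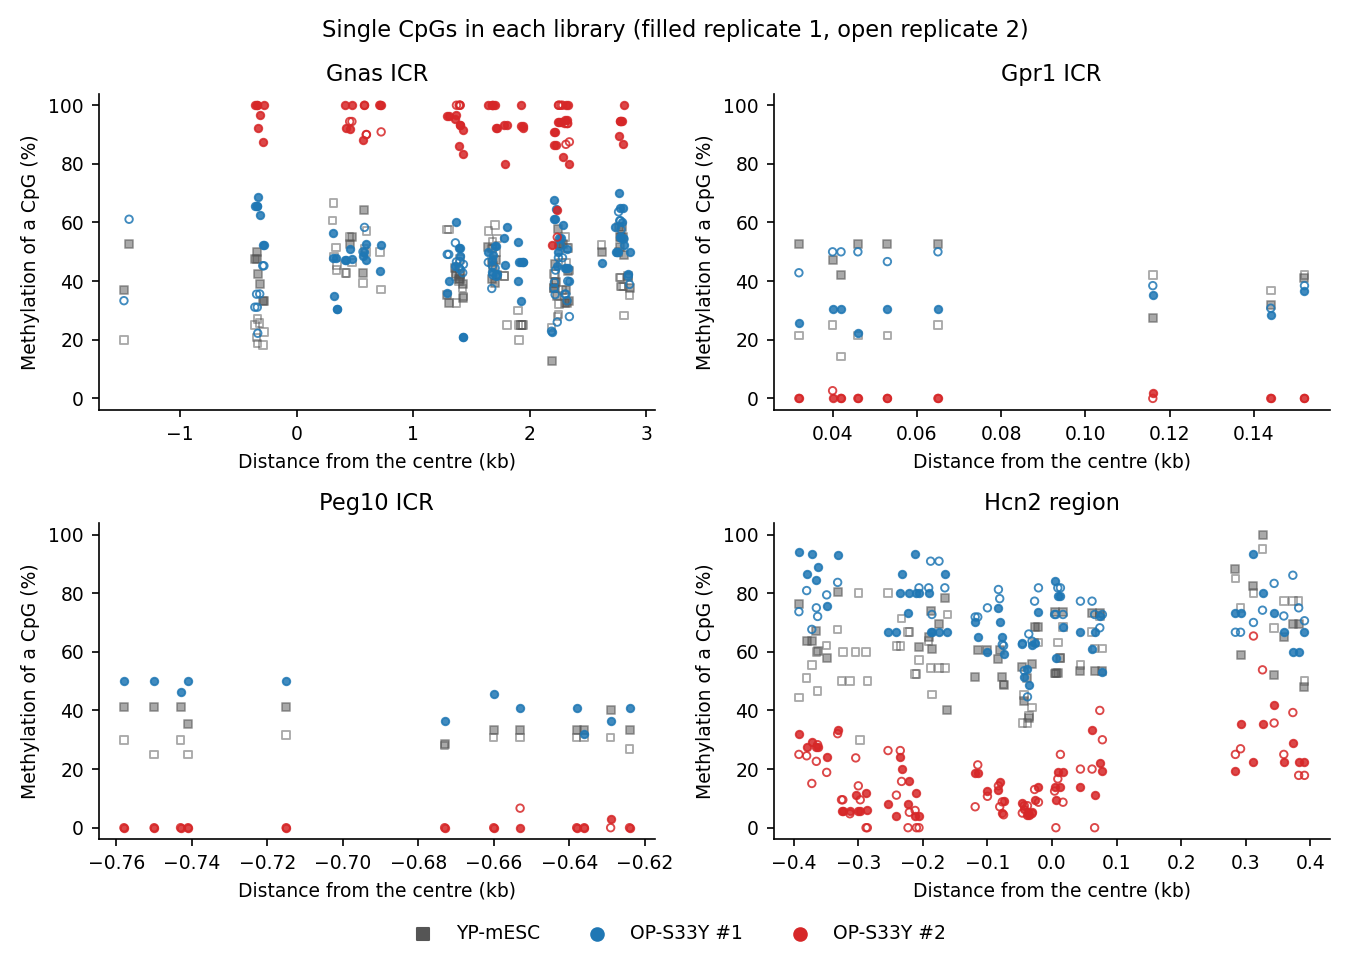
Methylation of single CpGs (y axis, %) by distance from the centre of the region (x axis, kb) at the Gnas, Gpr1 and Peg10 ICRs and the Hcn2 region, with replicate 1 filled and replicate 2 open. Every CpG with 10 reads in a library is shown. OP-S33Y #2 lies apart from OP-S33Y #1 at most CpGs, but reaches into its range at single CpGs of Gnas (down to 52.2%) and Hcn2 (up to 65.4%), and YP-mESCs lie with OP-S33Y #1 at Gnas, Gpr1 and Peg10.

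Reads per chromosome differed between the clones where some of these ICRs lie. Chromosome 1, which holds Gpr1, took a 1.20 times larger share of the reads of compared CpGs in OP-S33Y #1 than in OP-S33Y #2. In 19 of its 20 bins of 10 Mb all 4 pairs of libraries differed by more than 10% in that direction. Relative to YP-mESC replicate 1 the share was 1.21 in OP-S33Y #1, 1.00 in OP-S33Y #2 and 1.40 in OP-mESCs. Chromosome 8 was 1.07 times higher in OP-S33Y #1 by the bins' median, and both clones were below YP-mESC replicate 1 (0.842 and 0.790). On chromosome 2, 4 bins from 100 to 140 Mb were 1.15 to 1.33 times higher in OP-S33Y #2, but the bin of Gnas was not (0.923, with 0.912 to 0.934 over the pairs). The 204 bins of the other autosomes ran from 0.919 to 1.12. A bin of 10 Mb does not show the depth at the Gnas ICR itself, where OP-S33Y #2 was read less. Its replicates had 370 and 217 reads on the 15 compared CpGs, against 585 and 720 for OP-S33Y #1. On the 3 compared CpGs of the Kcnq1ot1 ICR they had 95 and 69 against 105 and 217. At the Gpr1 ICR they had 373 and 327 against 361 and 256. Over all compared CpGs the same libraries had medians of 36 and 27 reads against 30 and 44. The part of these local differences in reads in the levels at the ICRs was not tested. Copy number was not measured, and the part of the read shares in the methylation differences was not tested. Chromosome 1 had 0.341% lower CpGs against 0.279% on the other chromosomes. Without chromosomes 1, 2 and 8, an alternative chosen after the data were seen, 1322 CpGs were lower and 110 higher.

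**Figure D3:**
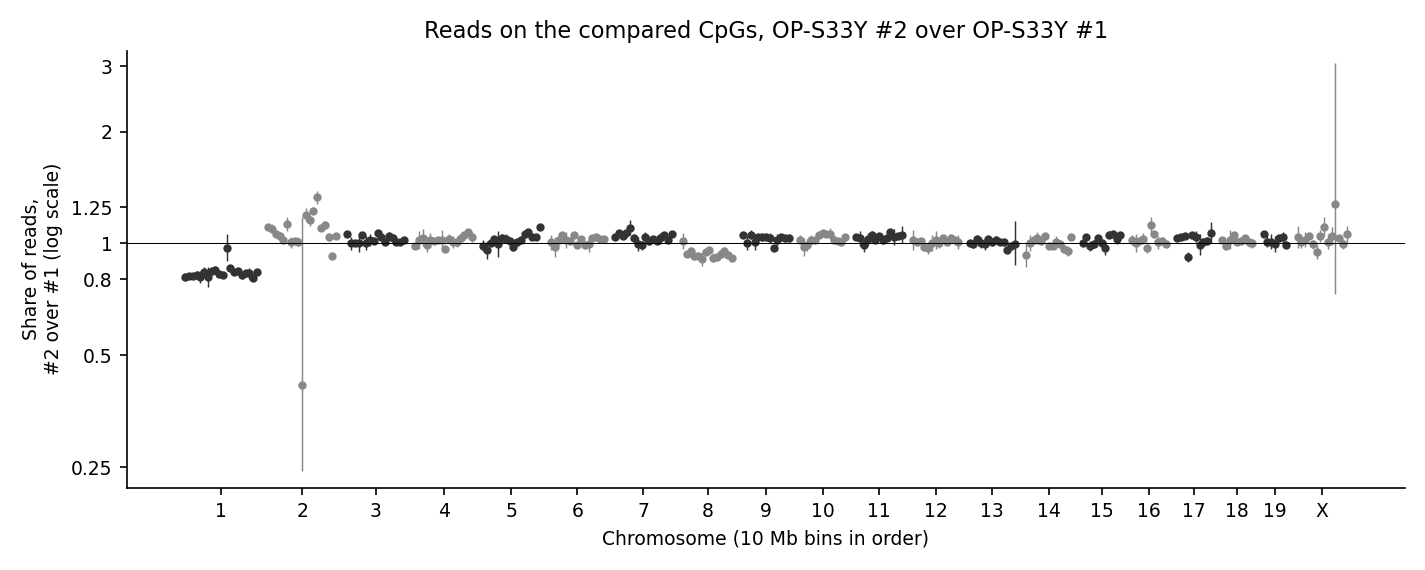
Share of reads on the compared CpGs in OP-S33Y #2 over that in OP-S33Y #1 (y axis, log scale) for each 10 Mb bin in chromosome order (x axis). Points are ratios of the mean shares, and bars run from the lowest to the highest of the 4 pairs of libraries. Nearly all of chromosome 1 lies near 0.83, 4 bins of chromosome 2 lie at 1.15 to 1.33, and single bins of chromosomes 2 and X with long bars hold CpGs with very high reads.

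Clusters of changed CpGs were few. A region needed 10 or more CpGs that had changed by over 25 points, with gaps under 2 kb between them, after the study's own rule. By this rule 1 region was higher and 4 were lower in OP-S33Y #2. The rule uses the difference itself, so regions have no test. Of all CpGs, 0.0982% were more than 25 points higher and 0.776% more than 25 points lower without any test. The region that was higher lay inside the Gnas ICR (chr2:174123794-174125553), with 14 of 15 CpGs changed.

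The longest run of changed CpGs was at the 3′ end of Hcn2, a pacemaker ion channel gene of heart and neurons (coding exon and UTR). All 41 CpGs compared there were more than 25 points lower in OP-S33Y #2. The level was 71% and 72.7% in OP-S33Y #1 against 18.95% and 18.82% in OP-S33Y #2, over 1084 to 1744 reads per library. YP-mESCs had 62.3% and 60.3% (41 and 35 CpGs) and OP-mESCs 74.7% and 71.9% (34 and 19 CpGs). OP-S33Y #2 was therefore the only one of the 4 lines with a low level at Hcn2, which sets it apart from Gpr1 and Peg10, where OP-mESCs were low as well. In the fixed 1 kb windows, which were not chosen on the difference, the window with 35 of these CpGs was 52.5 points lower (adjusted p = 3.19e-18, quasi-binomial F test). It also reaches past the end of Polrmt, the mitochondrial RNA polymerase gene.

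The region at Nefm, the gene of the medium neurofilament chain of neurons (chr14:68742537-68743769, coding exon, UTR and flank), had 17 of 37 CpGs changed. Its level was 69.7% and 67.6% in OP-S33Y #1 against 43.3% and 47.0% in OP-S33Y #2. YP-mESCs had 41.6% and 44.4% and OP-mESCs 4.82% and 9.30%, with each OP-mESC library on 25 of the 37 CpGs. At Nefm OP-S33Y #2 was thus near YP-mESCs, and OP-S33Y #1 was above YP-mESCs and OP-mESCs.

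In an intron of Abca16, a gene of the ABC transporter family (chr7:127647958-127648139), 13 of 21 CpGs had changed, and the level was 50.8% and 42.4% in OP-S33Y #1 against 19.8% and 22.4% in OP-S33Y #2. YP-mESCs had 44.9% and 42.9% and OP-mESCs 14.8% and 11.3%. At Sohlh2, a transcription factor of germ cells (chr3:54985912-54986431, from the flank through exon and intron), 11 of 21 CpGs had changed. The level was 78.6% and 72.0% in OP-S33Y #1 against 49.4% and 51.0% in OP-S33Y #2, with 67.3% and 55.4% in YP-mESCs and 27.4% and 22.1% in OP-mESCs. At Sohlh2 the order of the lines from high to low was OP-S33Y #1, YP-mESCs, OP-S33Y #2 and OP-mESCs, with no overlap. This order is not over the same CpGs, since YP-mESC replicate 2 covered 18 and OP-mESC replicate 2 covered 17 of the 21. At Abca16 OP-S33Y #1 and YP-mESCs overlapped, and OP-S33Y #2 lay below both and above OP-mESCs, of which replicate 1 covered 15 of the 21 CpGs. The count of regions depended on the rule: with at least 5 changed CpGs it was 4 higher and 39 lower, and at a minimum of 20 reads 0 higher and 2 lower. Without OP-S33Y #1 replicate 2 it was 2 higher and 10 lower.

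Fixed windows of 1 kb showed how the lower CpGs were spread. Of 56541 windows with at least 3 compared CpGs, 245 were lower (0.433%) and 12 were higher (0.0212%) in OP-S33Y #2, under the same thresholds in the quasi-binomial F test. The 245 lower windows had a median level of 83.2% in OP-S33Y #1 and 52.9% in OP-S33Y #2. In 201 of them OP-S33Y #2 lay between 30% and 70%, and in only 3 below 10%. Most lower windows were therefore intermediate in OP-S33Y #2, and not near 0 as Gpr1 was. They held a median of 3 compared CpGs, against 5 over all windows, and 19 CpGs per kb of genome, against 23. By position 86 lay in exons, 60 in introns, 98 between genes and 1 upstream of a gene. The same counts over all windows tested are not given, so these do not show an excess at any position. When any 1 library was left out, or with limma on mean percentages, 0 windows passed in either direction. At an unadjusted p under 0.05 and over 25 points these fits gave 239 to 404 lower and 12 to 31 higher windows. With levels of 10% to 90% only, chosen after the data were seen, leaving out 1 library gave 241 to 384 lower and 14 to 21 higher windows.

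**Figure D4:**
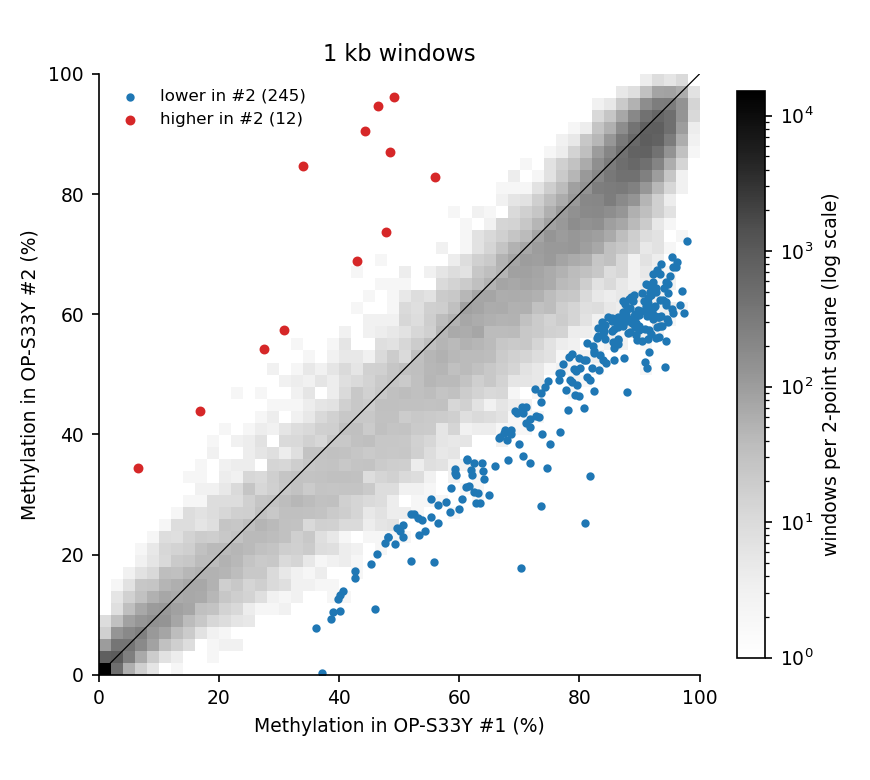
Methylation of the 1 kb windows in OP-S33Y #1 (x axis, %) and OP-S33Y #2 (y axis, %), means of 2 replicates. Grey squares give the number of windows on a log scale, blue points the 245 windows lower and red points the 12 windows higher in OP-S33Y #2. Of the blue points, 141 lie above 80% in OP-S33Y #1, and the cloud leans below the diagonal at intermediate levels.

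Among the lower windows, some at or near named genes show the range, and they were chosen after their values were seen. Next to Lyz2, the lysozyme gene of myeloid cells (chr10:116712001-116713000, 7 CpGs), the level was 83.5% and 80.1% in OP-S33Y #1 against 39.4% and 26.9% in OP-S33Y #2 (adjusted p = 4.27e-09, same test). In an intron of Fgfr2, a fibroblast growth factor receptor (chr7:138441001-138442000, 10 CpGs), it was 79.3% and 81.1% against 56.3% and 45.8% (adjusted p = 1.09e-05, same test). In an exon of Bcl3, an NF-κB cofactor (chr7:20396001-20397000, 4 CpGs), it was 44.0% and 48.0% against 15.0% and 6.94% (adjusted p = 1.12e-05, same test), while YP-mESCs had 72.2% on average. Both clones were thus below YP-mESCs at Bcl3, and OP-S33Y #2 further below.

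The 12 higher windows included the Gnas ICR in 2 windows, the Kcnq1ot1 ICR and Tex13. Of the others, 4 at or near transcription factor genes and 1 near an adhesion gene are given here, and the rest are not named. The share of all tested windows that lie near such genes is not given, so these names do not show a theme. Among promoters, which are other features than windows, 0 of 77 lineage transcription factor genes tested were higher. Upstream of Six3, a regulator of eye and forebrain (3 CpGs), the level was 17.3% and 16.5% in OP-S33Y #1 against 43.8% and 43.9% in OP-S33Y #2 (adjusted p = 0.00953, same test). At Pax3, a regulator of neural crest and muscle (4 CpGs), it was 26.5% and 28.5% against 52.4% and 56.0% (adjusted p = 0.00015, same test). Near Onecut2 (5 CpGs) it was 44.3% and 41.7% against 65.7% and 72.1%, and near Prdm8 (4 CpGs) 29.8% and 31.9% against 64.1% and 50.6%. The largest rise of any window outside ICRs, of 50.6 points, was in one 123471 bases from Ncam2, a neural adhesion gene (3 CpGs), with 25% and 43.1% against 86.1% and 83.3% and 26.1% in YP-mESCs. These windows were also named after their values were seen, and no gene group was tested.

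At the windows and CpGs that differed between the clones, YP-mESCs, the line of origin, were mostly nearer to OP-S33Y #1, in part by how these were chosen. Of the 224 lower windows with a level in both YP-mESC libraries, OP-S33Y #1 was nearer to YP-mESCs in 184 and OP-S33Y #2 in 40. OP-S33Y #2 was more than 10 points below YP-mESCs in 201, and OP-S33Y #1 more than 10 points above them in 64. The medians of these windows were 82.4% in OP-S33Y #1, 52.3% in OP-S33Y #2 and 78.2% in YP-mESCs. These windows were chosen with OP-S33Y #2 far below OP-S33Y #1. Where YP-mESCs were near full, OP-S33Y #1 was thus nearer largely by that choice. Of the 177 with OP-mESC levels too, 94 were at 70% to 90% in YP-mESCs and 26 at 90% or more. In the 55 at 30% to 70%, medians were 68.6% in OP-S33Y #1, 35.7% in OP-S33Y #2 and 57.1% in YP-mESCs. Whether OP-S33Y #1 was nearer beyond this choice was not tested. Of the 12 higher windows, OP-S33Y #1 was nearer in 8 and OP-S33Y #2 in 4, Tex13 among the latter. Among single CpGs that differed, OP-S33Y #1 was nearer at 1272 of 1466 lower and 118 of 147 higher CpGs. The lower CpGs were chosen in the same way, so the same limit holds for them. Over all compared CpGs the nearer clone depended on the level. At 70% to 90% in YP-mESCs (mean 82.3%) it was OP-S33Y #2, with 81.6% against 85.5% in OP-S33Y #1. At 30% to 70% (mean 52.4%) it was OP-S33Y #1, with 53.1% against 47.5% in OP-S33Y #2. Below 30% and at 90% or more it was also OP-S33Y #1. YP-mESC replicate 2 has no CpG on chromosome 13, which is why some windows have no level.

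OP-mESCs, which share no sample with the comparison of the clones, were low at many of the same windows. Of the 177 lower windows with a level in all 4 libraries of YP-mESCs and OP-mESCs, OP-mESCs were more than 25 points below YP-mESCs at 116 (65.5%), against 3.60% of all 39244 windows with these levels. Among windows with 70% to 90% in YP-mESCs it was 72 of 94 (76.6%), against 3.81% of all such windows. Among those with 30% to 70% it was 21 of 55 (38.2%), against 15.5%. The library medians of the lower windows were 76.7% and 78.4% in YP-mESCs, 82.8% and 82.5% in OP-S33Y #1, 53.7% and 52.0% in OP-S33Y #2, and 51.5% and 52.2% in OP-mESCs. These shares are descriptions, with no test, and neighbouring windows are not independent.

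**Figure D5:**
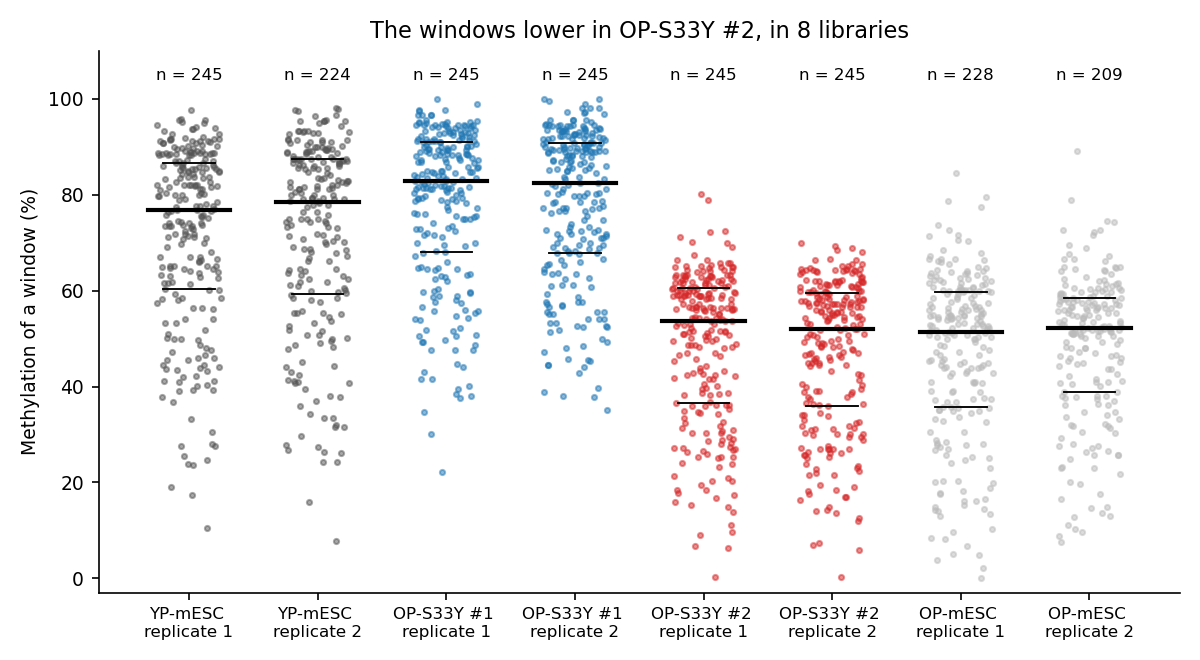
Methylation (y axis, %) of the 1 kb windows that were lower in OP-S33Y #2 than in OP-S33Y #1, in each of the 8 libraries (x axis). Points are windows, thick bars medians and thin bars quartiles, with the number of windows above. The clones differ by choice of the windows, but YP-mESCs and OP-mESCs did not enter it, and their medians lie near 78% and 52%.

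At promoters the clones differed at 7 of 13334 genes tested. In OP-S33Y #2 1 promoter was higher (0.0075%) and 6 were lower (0.045%). The promoter that was higher was that of Tex13, a testis-expressed gene on chromosome X (4 CpGs, 54 to 120 reads per library). It had 46.7% and 50.2% in OP-S33Y #1 against 87.2% and 87.0% in OP-S33Y #2, a difference of 38.6 points (adjusted p = 0.00119, same test over promoters). YP-mESCs had 89.1% and 84.2% (replicate 2 on 2 of the 4 CpGs), so at Tex13 it was OP-S33Y #1 that stood apart.

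Among the lower promoters, that of Gm11607 holds the 9 CpGs of the Gpr1 ICR and is the same measurement. Scnn1b, the beta subunit of the epithelial sodium channel (7 CpGs), had 55.4% and 63.6% in OP-S33Y #1 against 32.3% and 34.2% in OP-S33Y #2 (adjusted p = 0.0125, same test). YP-mESCs had 30.6% and 26.8% there, so OP-S33Y #1 had the higher level and OP-S33Y #2 that of the line of origin. The promoter of 1700018B08Rik (7 CpGs) had 83.9% and 77.6% against 54.2% and 34.4% (adjusted p = 0.0049, same test), with 81.1% and 79.0% in YP-mESCs. Gm10110 had 52.1% and 55.6% against 25.8% and 25.7%, D430018E03Rik had means of 82.4% against 53.9%, and the pseudogene Gm17257 had 69.6% and 67.7% against 34.6% and 45.5%. All 7 promoters had no overlap between the clones, which their choice by a difference over 25 points makes likely. Among all 1 kb windows tested, 26320 of 56541 had no overlap either. Without any 1 library 0 promoters passed in either direction, and 1 to 4 higher and 8 to 20 lower had an unadjusted p under 0.05 and over 25 points. With levels of 10% to 90% only, still 0 passed without either OP-S33Y #2 library.

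Most promoters were bare in both clones, with 11430 of the 13334 tested under 10% in all 4 libraries, and the pathway lists were read against this count. Of 61 Wnt pathway genes tested, 56 were under 10% in all 4 libraries and none passed the threshold. The same held for 20 of 22 genes of DNA methylation and imprint protection, 13 of 14 pluripotency genes and 11 of 12 genes of formative and primed cells, with none past the threshold. The imprinted genes had 12 of 21 promoters under 10% and none past the threshold. Germline genes, many of which are silenced by promoter methylation in somatic cells, were the list with the highest level. Of 39 tested, 12 were over 50% in all 4 libraries, 1 was higher (Tex13) and none was lower, and the median difference was -2.89 points against 0.11 over all promoters. Their median level was 30.1% in OP-S33Y #1 and 25.7% in OP-S33Y #2. Most other promoters were under 10% and could fall by little. Single CpGs at 30% to 70% in YP-mESCs differed by -5.58 points on average over the genome. That is a mean over CpGs of 1 band, and the list's value is a median over promoters of mixed level. The 2 are not directly comparable, and the part of the level in the list's difference was not tested. Sohlh2 (22 CpGs) had 78.8% and 73.0% against 50.6% and 51.6%, which is -24.8 points and just under the minimum (adjusted p = 5.62e-05, same test). Its levels are close to those of the Sohlh2 region above, and it is not separate support for that region. Dazl, an RNA-binding gene of germ cells (25 CpGs), had 65.5% and 73.1% against 57.1% and 60.7% (adjusted p = 0.0333, same test), a difference of -10.4 points.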

How the data were processed

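RRBS libraries of OP-S33Y #1 and #2, YP-mESCs and OP-mESCs were read, 2 per group, and the 8 other libraries were not used here. The authors deposited 1 table per library, with a read count and a percent methylated for every CpG cytosine on either strand that had 10 reads or more, neither normalized nor pooled over replicates. The submitters' processing notes name CASAVA 1.8.2, Trim Galore 0.2.8, Bismark 0.7.9 and mm9. How duplicate reads were handled and which restriction enzyme was used is not given in the sources used here.

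Methylated reads were computed from count and percent, and the strands of a CpG were summed. CpGs needed 10 reads in all 4 clone libraries. A level is the mean of CpG percentages. For YP-mESCs and OP-mESCs it uses those of the compared CpGs that had 10 reads in the library, which can be fewer than in the clones. Single CpGs were tested by a likelihood ratio in a binomial model with 1 overdispersion (1.14). Windows of 1 kb (at least 3 CpGs), ICRs (at least 2 CpGs) and promoters (1000 bases before to 500 after a start, at least 3 CpGs) were tested by a quasi-binomial F test of summed reads, with limma's moderation of the overdispersion. Adjustment was by Benjamini-Hochberg over all CpGs, over windows and ICRs together, and over promoters, with a threshold of 0.05. Reads summed over a region are not independent, since a long read counts once per CpG. Windows (285) and promoters (122) with no methylated or no unmethylated read were not tested. ICR coordinates are those of the study's supplementary table. Genes are those of GENCODE M1 on mm9. The text names all 20 ICRs, the regions with the most changed CpGs, the promoters past the threshold whose replicates do not overlap, and list members past it. The 4 libraries were picked by label, but the comparison, lists and rules were chosen with earlier results of these data known.

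Alternatives were stricter limits on reads, number of CpGs and size of difference, strands kept apart, Fisher's exact test, a shared or moderated overdispersion, limma on mean percentages, the replicate number as a block, chromosomes left out and each library left out in turn. The tests were tried on simulated reads. Sequences were read from the mm9 genome, and that of the Hcn2 region is not reported here. The work used Python 3.11.15, numpy 2.4.6, pandas 2.3.3, scipy 1.17.1, matplotlib 3.10.9, R 4.3.3 and limma 3.58.1.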

Additional observations from a re-analysis of the deposited data

How the results depend on the processing

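The number of CpGs lower and higher in OP-S33Y #2, 1718 and 157 as reported, was 582 and 74 at a minimum of 20 reads, 295 and 37 at 30 reads, and 1024 and 60 at a difference over 40 points. With each strand on its own 393 were lower. Without 1 library the counts ran from 634 to 1451 lower and from 82 to 156 higher. Higher and lower regions (1 and 4) were 4 and 39 with at least 5 changed CpGs, 0 and 2 with at least 15 or at 20 reads, and 1 was lower at over 40 points or if each library of one clone and each of the other had to be 25 points apart. Without 1 library there were 1 to 2 higher and 3 to 10 lower regions.

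Higher and lower windows (12 and 245) were 2 and 50 with at least 5 CpGs and 434 and 2443 by adjusted p alone, and 60 were lower at 20 reads. Of the ICRs (2 and 1), 1 was higher and 3 were lower with at least 5 CpGs, and 3 were lower with each library's own CpGs. At 20 reads the number higher was still 2, but Gnas, left with 1 CpG (23.9 points against 46.3), was not tested, and Commd1 passed (11.7 points, adjusted p = 0.032, quasi-binomial F test). H13 (adjusted p = 0.0409 and 0.0105) and Plagl1 (adjusted p = 0.0368 and 0.0392, quasi-binomial F test) passed in both settings. Of the promoters (1 and 6), 2 were lower in the window from 250 bases before to 50 after the start, and 0 were higher with at least 5 CpGs or at 20 reads.

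Limma on mean percentages called 0 windows, 0 ICRs and 0 promoters. At an unadjusted p under 0.05 it had 12 and 249 windows, 2 and 1 ICRs and 1 and 6 promoters. The deviations of same-numbered libraries had r = 0.0053 over CpGs. Counting error makes up most of these deviations, so this r cannot show whether the numbers pair the libraries. With the replicate number as a block, the F test called 0 windows, ICRs and promoters, with 12 and 240 windows, 2 and 2 ICRs and 1 and 6 promoters at an unadjusted p under 0.05. The block with levels of 10% to 90% only, chosen after the data were seen, gave 12 and 248 windows, 2 and 2 ICRs and 1 and 6 promoters. The block and each left-out library leave 1 residual degree of freedom. Without 1 library the F test called from 0 to 0 windows, ICRs and promoters. With levels of 10% to 90% only it called 14 to 21 higher and 241 to 384 lower windows, 2 to 3 higher and 1 to 2 lower ICRs, and 0 to 3 higher and 0 to 20 lower promoters.

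The difference in mean methylation was -0.45 points as methylated reads over all reads. The read ratio of OP-S33Y #2 over OP-S33Y #1 on chromosome 1 (0.830) was 0.819 as the median of 1 Mb bins and 0.818 without the CpGs of highest reads (over 142 to 209 reads, by library), and on chromosome 8 (0.939) it was 0.920 and 0.924. No result that passed its test changed direction. Of the ICRs that did not pass, Snrpn (2.46 points as reported) was at -3.34 at 20 reads, -0.69 without OP-S33Y #1 replicate 1 and -7.92 without OP-S33Y #2 replicate 2. Grb10 (3.96) was at -1.39 without OP-S33Y #1 replicate 2, and Trappc9 (0.29) at -0.31 at 20 reads and at -1.495 and -1.443 without replicate 1 of OP-S33Y #1 and of OP-S33Y #2. At 10 reads a single CpG moves in steps of 10 points, so values of single CpGs are coarse. The 3 CpGs of Kcnq1ot1 rest on 69 to 217 summed reads per library.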

Other observations

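The promoters of lineage transcription factor genes were under 10% in all 4 libraries for 61 of 77 tested, against 11430 of 13334 over all genes, and none passed the threshold in either direction. Pax6, a regulator of eye and neural fate, was the only one of them with an adjusted p under 0.05 (17 CpGs, 4.66% and 3.44% in OP-S33Y #1 against 9.12% and 7.86% in OP-S33Y #2, adjusted p = 0.0058, quasi-binomial F test), and its difference of 4.44 points was below the minimum of 25. Of 27 Hox gene promoters tested, 22 were under 10% in all 4 libraries and none passed. None of 12 promoters of neuronal genes passed, although that of Nefm had 69.3% and 67.4% in OP-S33Y #1 against 42.9% and 46.7% (adjusted p = 3.77e-07, same test). Its difference of -23.5 points fell short of 25. This promoter shares CpGs with the Nefm region above, so its p-value is not separate support for that region.

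Promoters of markers of other cell types that the cultures could hold (primitive endoderm, trophectoderm, fibroblasts) were tested for 6 of 12 genes, and none passed. Gata4, a marker of primitive endoderm, had 89.5% and 91.1% in OP-S33Y #1 against 87.2% and 78.4% in OP-S33Y #2, while Gata6 and Cdx2 were under 2% in all 4 libraries. Only 2 promoters of the clustered protocadherin genes could be tested, and neither passed.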
